A study of Mus musculus with 77 samples.

Results

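Immediate early genes are transcribed within minutes of neuronal firing or cell stimulation, and 10 of them were followed here in mice 6 to 8 days after the last of a series of social defeats: Fos, Fosb, Fosl2, Junb, Egr1, Egr2, Egr3, Arc, Npas4 and Nr4a1. They were chosen by name as 10 of the 18308 genes with a row in either of 2 tables, one of AGO2-bound mRNA from the stria terminalis bed nucleus (BNST) and one of mRNA in blood. All 10 had a row among the 16587 genes of the BNST table, and 5 (Fos, Fosb, Fosl2, Junb and Nr4a1) had one among the 13084 genes of the blood table. The other 5 are not analysed in blood here.

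Male mice aged 8 weeks at dissection went through chronic social defeat stress (CSDS), in which an inbred mouse meets a larger aggressor every day and then lives beside it behind a perforated wall. Controls were mice of the same strain that shared a divided cage with another control and were never defeated. Defeated mice were labelled resilient or susceptible by their social interaction ratio, and the animals sequenced were taken from the ends of that range. Behavioural tests, a forced swim test among them, came between the last defeat and the collection of tissue. The BNST table held 5 control, 5 resilient and 4 susceptible pools of the C57BL/6Crl strain (B6), each made from the BNST of 3 mice, so that 1 value stands for 3 animals. The blood table held 1 mouse per sample, with 5 B6 control, 5 B6 resilient, 5 B6 susceptible, 5 DBA/2Crl (D2) control and 5 D2 susceptible mice. No D2 resilient blood and no D2 BNST were analysed here. Recovered reads ranged from 3701281 to 10659882 per BNST pool, the deepest being resilient pool 3, and from 9751603 to 15878495 per blood sample. Labels and column names disagreed on the group of 2 D2 mice, control 2 and susceptible 2, and the labels were followed.

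Neuronal activity raises calcium in the cell and switches on these genes through transcription factors that are already present, such as CREB, SRF and MEF2. Fos, Fosb, Fosl2 and Junb encode subunits of the AP-1 transcription factor. Egr1, Egr2 and Egr3 encode zinc finger factors, Npas4 a factor that responds closely to calcium entry in neurons, Nr4a1 an orphan nuclear receptor, and Arc a protein of the synapse that removes glutamate receptors from the membrane. In the BNST, a forebrain relay for sustained anxiety, and elsewhere in the brain, their mRNA is used as a marker of recent activity, and FOSB products are known for lasting through repeated stimulation. AGO2 is the protein of the silencing complex that carries miRNAs, so the BNST values measure mRNA held by that complex and not total mRNA. Levels are given as log2 CPM, the log2 of reads scaled to a common library size, so that a difference of 1 is a doubling.

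Egr1, Arc and Nr4a1 were the most abundant members in the BNST once exon length was taken into account. In control pools Egr1 stood at 31.8 CPM per kb of exon, Arc at 26.6 and Nr4a1 at 23.2, each a mean over 5 pools on the log scale. Junb followed at 8.10 CPM per kb, then Egr3 at 7.73, Npas4 at 6.61, Fosl2 at 5.36, Egr2 at 5.16 and Fos at 5.14, and Fosb was the lowest at 1.07. Only 2 steps in that order were larger than the larger SD of the neighbouring genes: the one from Nr4a1 to Junb, by 1.52 on the log2 scale, and the one from Fos to Fosb, by 2.27. Fosb rested on 8 to 112 reads per pool, Egr2 on 11 to 420 and Fos on 25 to 300, whereas Egr1 had 185 to 2128 and Arc 237 to 2146. The ratios below that involve Fosb therefore carry the most counting error.

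The members moved together from pool to pool, whatever the group. Each value was expressed as the deviation from the mean of its own group, so that differences between groups were taken out. Control pool 4, control pool 5 and resilient pool 3 lay above their group's mean for 10 of 10 members, by a mean of 1.02, 0.47 and 1.23 on the log2 scale. Resilient pool 1, resilient pool 2, susceptible pool 3, control pool 1 and control pool 3 lay below it for 10 of 10 members, with mean deviations of -0.57, -1.09, -0.66, -0.41 and -0.64. Over the 45 pairs of members, the Pearson correlation of these deviations across 14 pools had a median of 0.85 and ranged from 0.61 for Junb with Npas4 to 0.96 for Fosl2 with Nr4a1. Spearman's rho over the same pairs ranged from 0.52 to 0.96, with a median of 0.84. The points share their library, so these values are a description.

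**Figure D1:**
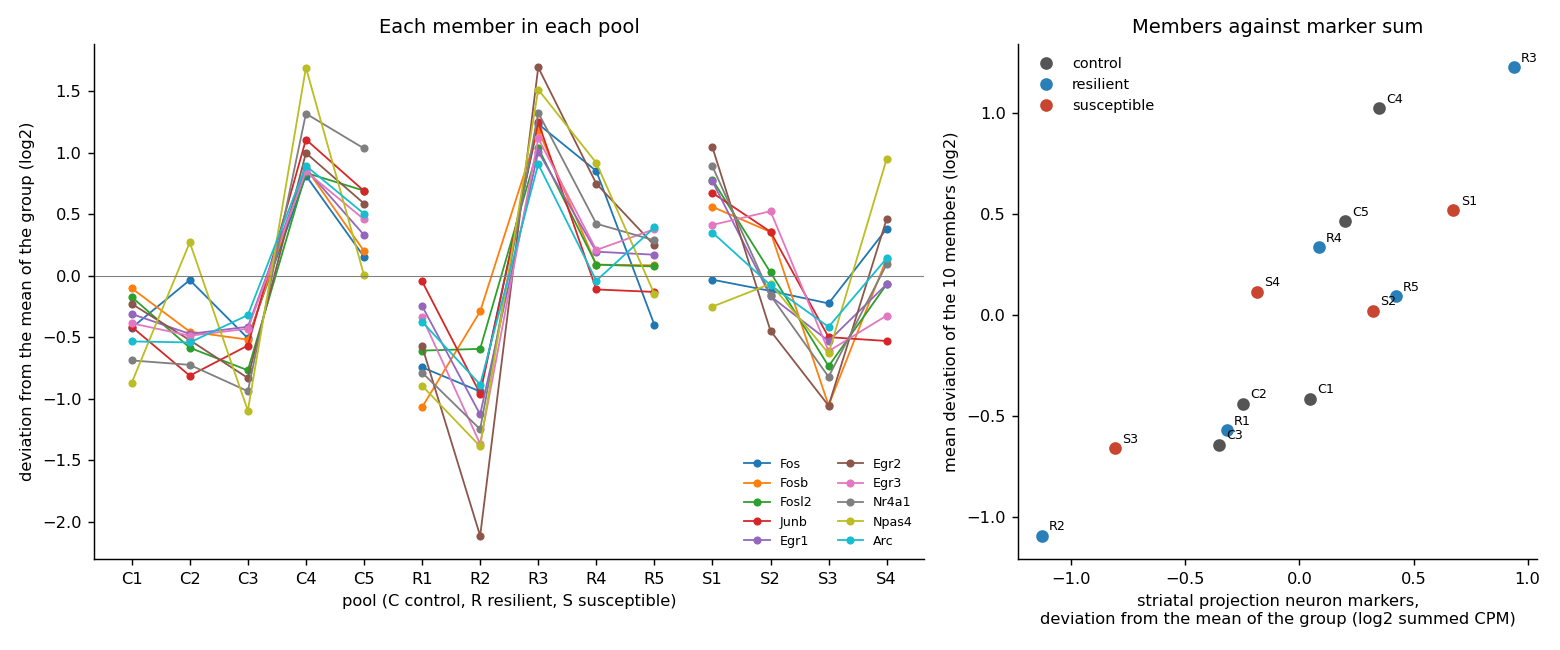
Left, deviation of each member from the mean of its group (log2) in each of the 14 BNST pools, 1 line per gene. Right, mean deviation of the 10 members against the deviation of the summed striatal projection neuron markers, 1 point per pool. Control pools 4 and 5 and resilient pool 3 are high for all 10 members, and pools rich in the markers are also high in the members.

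This variation was large for genes of the same level. The SD within groups was between 0.60 (Arc) and 1.10 (Egr2) for the 10 members, against a median of 0.28 over all 16587 genes. Compared with the genes whose mean level lay within 0.5 of their own on the log2 scale, Nr4a1 stood at the 100th percentile of SD, Npas4 at 99.9, Egr1 at 99.7, and Fosb, the lowest of the 10, at 92.5. Differences between groups of 4 or 5 pools have to be read against this spread.

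Among the 12629 genes with a mean of at least 2 log2 CPM, those with the largest correlation with the mean deviation of the members across 14 pools were Ctxn1 (r = 0.97), a small membrane protein of neurons, Srf (0.96), the serum response factor, Htr1b (0.95), a serotonin receptor, Dusp14 (0.95), a phosphatase of MAP kinases, and Hbegf (0.95), a growth factor of the EGF family. A correlation of at least 0.9 was reached by 0.586% of these genes and one of at least 0.7 by 7.76%. In a list of 37 other rapid primary response genes, 34 were measured and 9 of them reached 0.7, with a median r of 0.58, against -0.01 over all genes. Of the 21 upstream regulators measured, 9 reached it (median 0.65), of 20 activity-regulated effector genes 6 (median 0.31), and of 7 EGR co-repressors and AP-1 partners 1, which was Nab2 (r = 0.94), a co-repressor that EGR factors induce.

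Markers of striatal projection neurons moved with the members. The 8 markers of that list (among them Drd1, Drd2, Adora2a and Ppp1r1b) were all in the table, none was at 0 in any pool, and their summed level ranged from 1809 to 2941 CPM in controls, from 810 to 3397 in resilient pools and from 878 to 2459 in susceptible pools. Across 14 pools, the deviation of the log2 sum correlated with the mean deviation of the members with a Pearson r of 0.87 (permutation p = 5.0e-05, adjusted p = 0.00052) and a Spearman rho of 0.89 (permutation p = 4.0e-05, adjusted p = 0.00026), and r was 0.83 without the 2 pools farthest from the median of the sum. These adjusted p-values cover 13 relations, to 12 summed lists and to read depth. The T cell list gave a similar value (r = 0.87, permutation p = 8.0e-05), but only 3 of its 7 genes were measured (Bcl11b, Cd4 and Lat), and the most abundant, Bcl11b, is also expressed by striatal neurons. Summed markers of forebrain GABAergic neurons had a rho of 0.74 (permutation p = 0.0036, adjusted p = 0.016). Their Pearson r was lower, at 0.59 (permutation p = 0.026, adjusted p = 0.083). Those of glutamatergic neurons had a rho of -0.70 (permutation p = 0.0070, adjusted p = 0.023) and an r of -0.61 (permutation p = 0.021, adjusted p = 0.083). Read depth had a rho of 0.26 (permutation p = 0.37) and an r of 0.48 (permutation p = 0.084, adjusted p = 0.16). All 8 striatal markers also had log2 fold changes below 0 in both comparisons with controls, with medians of -0.52 in resilient and -0.67 in susceptible pools, and 2 of 8 were called lower in each comparison. In susceptible pools 5 of 6 choroid plexus markers were called lower (median -1.80, beside -0.76 and 1 of 6 in resilient pools), as were 3 of 6 markers of neurons (median -0.27) and 3 of 6 of astrocytes (median -0.19), 1 astrocyte marker being called higher. Of forebrain GABAergic markers 2 of 6 were called lower (median -0.12), and of oligodendrocyte markers 2 of 6 lower and 1 higher (median -0.09). Over all genes 9.28% were called lower in susceptible pools. In either direction 18.9% were called in susceptible and 17.7% in resilient pools. The summed choroid plexus markers ranged from 34.0 to 195 CPM in controls, from 25.5 to 141 in resilient pools and from 14.7 to 63.9 in susceptible pools. The part of these cell types in the results on the members was not tested. In pooled tissue, fewer cells of a type and less RNA per cell cannot be told apart.

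RefSeq promoter windows of GRCm38.p6, from 250 bases before the start site to 50 after it, were at hand for 7 of the 10 genes. Those of the 6 genes that held a match to the CRE core are printed, for Egr2 1 of its 5 overlapping or neighbouring windows. They run 5′ to 3′ on the strand of the gene, with the CRE core (TGACG on either strand) and the CArG box in capitals. The window of Fosl2 held no CRE core. No window was at hand for Egr1, Egr3 and Arc, so whether their promoters hold these letters was not seen. The part of these matches in the shared movement was not tested.
Fos (chr12:85473640-85473939, plus strand): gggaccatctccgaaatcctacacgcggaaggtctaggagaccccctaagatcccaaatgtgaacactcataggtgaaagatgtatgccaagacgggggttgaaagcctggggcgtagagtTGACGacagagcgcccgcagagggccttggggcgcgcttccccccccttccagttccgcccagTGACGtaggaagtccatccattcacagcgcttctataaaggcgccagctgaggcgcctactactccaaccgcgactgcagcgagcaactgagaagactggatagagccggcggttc
Fosb (chr7:19309996-19310295, minus strand): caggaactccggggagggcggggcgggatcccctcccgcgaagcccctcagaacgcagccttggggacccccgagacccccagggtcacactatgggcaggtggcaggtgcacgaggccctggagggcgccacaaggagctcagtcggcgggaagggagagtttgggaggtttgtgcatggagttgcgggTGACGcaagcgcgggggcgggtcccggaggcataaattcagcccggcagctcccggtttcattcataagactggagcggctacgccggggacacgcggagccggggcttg
Junb (chr8:84978699-84978998, minus strand): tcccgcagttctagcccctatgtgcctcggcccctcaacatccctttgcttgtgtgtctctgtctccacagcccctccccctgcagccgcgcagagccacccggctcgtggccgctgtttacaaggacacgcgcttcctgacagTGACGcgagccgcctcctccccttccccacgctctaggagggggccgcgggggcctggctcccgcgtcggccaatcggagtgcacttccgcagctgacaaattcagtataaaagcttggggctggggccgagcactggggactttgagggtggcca
Egr2 (chr10:67537619-67537918, plus strand): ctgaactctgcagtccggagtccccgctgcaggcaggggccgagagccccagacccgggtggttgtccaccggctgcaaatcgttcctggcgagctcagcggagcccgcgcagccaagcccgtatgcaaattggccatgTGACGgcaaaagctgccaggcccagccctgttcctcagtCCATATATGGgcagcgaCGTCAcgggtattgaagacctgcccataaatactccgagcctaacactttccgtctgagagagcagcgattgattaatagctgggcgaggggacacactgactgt
Npas4 (chr19:4989922-4990221, minus strand): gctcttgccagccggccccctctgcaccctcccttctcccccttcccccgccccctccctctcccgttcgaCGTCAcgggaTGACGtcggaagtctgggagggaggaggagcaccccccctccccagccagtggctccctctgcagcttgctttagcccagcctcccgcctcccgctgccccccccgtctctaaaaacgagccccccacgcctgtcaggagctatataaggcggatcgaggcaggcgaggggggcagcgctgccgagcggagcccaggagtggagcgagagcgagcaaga
Nr4a1 (chr15:101266596-101266895, plus strand): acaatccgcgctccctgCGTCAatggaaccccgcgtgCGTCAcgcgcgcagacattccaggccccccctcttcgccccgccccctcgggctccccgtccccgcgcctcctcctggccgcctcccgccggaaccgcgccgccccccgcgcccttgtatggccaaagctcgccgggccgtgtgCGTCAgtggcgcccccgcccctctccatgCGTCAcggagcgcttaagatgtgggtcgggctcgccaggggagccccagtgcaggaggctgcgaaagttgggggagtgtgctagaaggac

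The core TGACG of the CREB site, the CRE, was found on either strand in 6 of the 7 genes with a window, all but Fosl2. Counted by window it was in 8 of 11, against 20.8% of all 32851 windows. Overlapping windows of Egr2 hold the same 2 matches, so the count by window repeats them. Nr4a1 had 4 matches, Fos, Egr2 and Npas4 had 2 each, and Fosb and Junb 1 each. The full CRE (TGACGTCA, which contains the core on both strands) was found in none of the 7, against 1.79% of all windows. The CArG box, the site of SRF, was found in Egr2 alone, in 4 of its 5 windows, some of which share the same match, against 1.63% of all windows. An EGR site (GCGNGGGCG) was found in Fosb, Fosl2 and Nr4a1, in 3 of the 11 windows, against 5.55% of all windows. Neither the NBRE of the NR4A factors (AAAGGTCA) nor an AP-1 site (TGANTCA) was found in any of the 7, against 1.51% and 7.81%. GC content was 58.7% in the window of Fos, 65.3% in that of Junb and 72.3% in that of Nr4a1, against a median of 52.7% over all windows. Sites beyond these windows were not searched, nor were any in Egr1, Egr3 and Arc. A match is a description of letters and not of binding.

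The first comparison asked whether mice that withstood defeat differ from controls at this distance from the last encounter. None of the 10 members was called in resilient against control pools (an unadjusted limma p below 0.05 with a change of 1.2-fold or more), where 17.7% of all genes were. Without the limit on fold the count was also 0, against 20.7% of genes, as it was at an adjusted p below 0.05, against 1.95%. The groups overlapped for all 10 members, where they did not for 5.18% of genes. Egr3 came nearest, at 4.70, 4.60, 4.66, 5.94 and 5.55 log2 CPM in control pools 1 to 5 and at 4.01, 2.98, 5.47, 4.56 and 4.73 in resilient pools 1 to 5. The groups overlap only through resilient pools 3 and 5, since the other 3 resilient pools lay below every control. The log2 fold change was -0.74 (SE 0.38, limma adjusted p = 0.27, exact permutation p = 0.17).

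Arc was also not called, with a log2 fold change above 0. It stood at 5.81, 5.80, 6.02, 7.24 and 6.85 log2 CPM in controls and at 6.36, 5.85, 7.64, 6.70 and 7.13 in resilient pools. No resilient pool lay below every control pool, and 1 lay above all of them. The log2 fold change of Arc was 0.39 (95% interval -0.26 to 1.04, exact permutation p = 0.37), and it ranged from 0.17 to 0.62 with 1 pool left out. Npas4 was at 0.37 (interval -0.75 to 1.49), Nr4a1 at 0.29 (-0.74 to 1.33) and Fos at -0.02 (-0.78 to 0.74), and these 3 intervals leave room for a change of more than 1.5-fold in either direction. The remaining members were at -0.53 (Fosb, Egr1 and Egr2), -0.47 (Junb) and -0.27 (Fosl2), and the median over the 10 was -0.37, beside -0.02 over all genes. Leaving out resilient pool 3, the deepest library, changed this count most. Without it 4 members were called lower, Fosb (-0.83, adjusted p = 0.14), Junb (-0.78, adjusted p = 0.16), Egr1 (-0.79, adjusted p = 0.10) and Egr3 (-1.02, adjusted p = 0.066), where 26% of all genes were called. Without control pool 2 Egr3 was the 1 member called (-0.86), and without resilient pool 2 Arc was the 1 member called, higher (0.61).

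**Figure D2:**
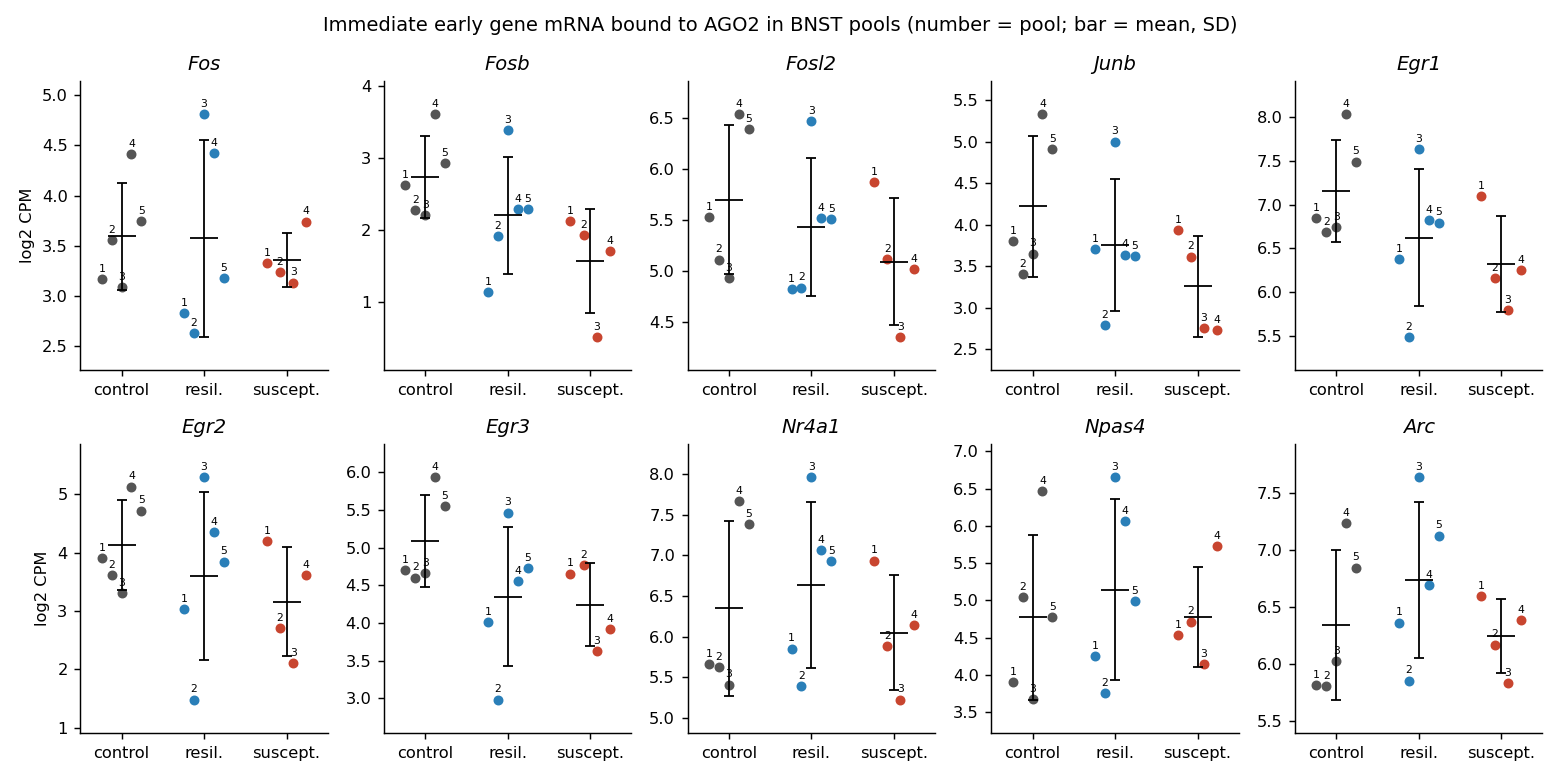
Level of each member (log2 CPM) in the 14 BNST pools by group, 1 point per pool with the pool's number, and the mean with its SD. Fosb is the 1 member of 10 whose susceptible and control pools do not overlap, beside 10.9% of all genes.

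In susceptible against control pools, some AP-1 and EGR members were called lower. Of the 10 members 4 were called, all lower, where 18.9% of all genes were called and 9.28% were called lower. They were Fosb, Junb, Egr1 and Egr3, and no member had an adjusted p below 0.05, a level reached by 4.02% of genes. The same 4 had an unadjusted p below 0.05, as 21.2% of genes did. The median log2 fold change over the 10 was -0.72, beside -0.01 over all genes. These counts do not stand for separate observations, since the members move together from pool to pool.

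Fosb showed the largest difference. It stood at 2.63, 2.28, 2.21, 3.61 and 2.94 log2 CPM in controls and at 2.13, 1.93, 0.52 and 1.71 in susceptible pools, or 2.73 ± 0.57 (SD, n = 5) against 1.57 ± 0.72 (SD, n = 4). Every susceptible pool lay below every control pool, though susceptible pool 1 did so narrowly. The log2 fold change was -1.16 (SE 0.41, limma p = 0.012, adjusted p = 0.11), and a two-sided exact permutation test gave p = 0.016 where the smallest p it can give is 0.0079. Fosb was the only member whose groups did not overlap, where 10.9% of all genes did not. It was called in 19 of the 20 alternative analyses, all except the one without susceptible pool 3.

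Egr1 stood at 6.85, 6.68, 6.74, 8.02 and 7.49 log2 CPM in controls and at 7.09, 6.16, 5.80 and 6.26 in susceptible pools. Only susceptible pool 1 lay within the range of the controls. Its log2 fold change was -0.83 (SE 0.35, limma p = 0.031, adjusted p = 0.19, exact permutation p = 0.071). Junb stood at 3.80, 3.41, 3.65, 5.33 and 4.91 in controls and at 3.93, 3.62, 2.76 and 2.73 in susceptible pools. Susceptible pools 1 and 2 lay within the control range, and the log2 fold change was -0.96 (SE 0.42, limma p = 0.036, adjusted p = 0.20, exact permutation p = 0.13). Exon bases of Junb overlap those of Prdx2, a gene on the opposite strand. The strand setting of the counting was not given in the sources used here. Egr3 stood at 4.66, 4.77, 3.63 and 3.92 in susceptible pools, of which the last 2 lay below every control. Its log2 fold change was -0.85 (SE 0.40, limma p = 0.048, adjusted p = 0.23, exact permutation p = 0.14). These 4 calls rested on few pools. Only 1 of them was left without control pool 4, without control pool 5 or without susceptible pool 4, and 0 without susceptible pool 3.

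The other 6 members were not called. Egr2, with values of 3.90, 3.61, 3.30, 5.13 and 4.72 in controls and 4.20, 2.71, 2.10 and 3.62 in susceptible pools, had a fold change as large as those above but a wider error (-0.97, SE 0.60, exact permutation p = 0.14). Fosl2 was at -0.61 (interval -1.39 to 0.17) and Nr4a1 at -0.30 (interval -1.40 to 0.80). Fos, at 3.17, 3.56, 3.09, 4.41 and 3.75 in controls and 3.33, 3.23, 3.13 and 3.74 in susceptible pools, was at -0.24 (interval -1.05 to 0.57). Every susceptible pool lay inside the control range for Fos, as it also did for Arc and for Npas4. Arc was at -0.10 (interval -0.79 to 0.59) and Npas4 at 0.01 (SE 0.57).

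**Figure D3:**
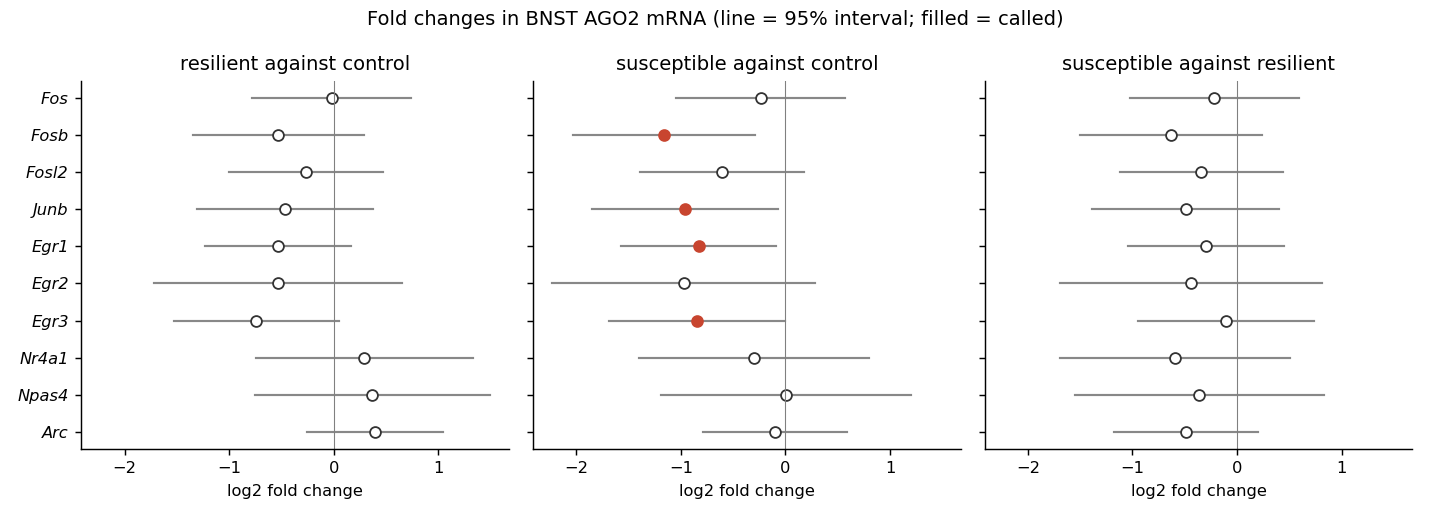
log2 fold change of each member in the 3 comparisons of BNST pools, with its 95% interval from limma, and filled points for members called. The 4 filled points, Fosb, Junb, Egr1 and Egr3, are all below 0 in susceptible against control pools.

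Susceptible and resilient pools were then set against each other. None of the 10 members was called, where 2.14% of all genes were, and without the limit on fold the count was also 0, against 2.42%. All 10 log2 fold changes were below 0, where 52.6% of all genes were above 0, with a median of -0.40 beside 0.01 over all genes. The members move together from pool to pool, so these 10 signs are not 10 separate observations. The share over all genes is therefore not a like background. The fold changes ran from -0.11 for Egr3 to -0.63 for Fosb, and the groups overlapped for every member, where they did not for 0.591% of genes. Without resilient pool 3 the fold changes of Egr3 (0.17), Fos (0.09) and Npas4 (0.02) were above 0. Without resilient pool 1 Fosb was called (-0.90), and without resilient pool 2 Arc was called (-0.71).

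Since the members rise and fall together from pool to pool, their ratios within a pool were also compared, which do not depend on how a library was scaled. The log2 ratio was taken for each of the 45 pairs of members, a step added after the values had been seen. In resilient against control pools 6 of the 45 ratios did not overlap between groups, where 0.264% of the 165860 ratios of any gene to a member did not. In susceptible against control pools 4 of 45 (8.89%) did not, which is near the 6.27% of all such ratios that did not. In susceptible against resilient pools the count was 0 of 45, where 0.25% did not overlap. These shares are not a like background for ratios between members. Most genes do not move with the members from pool to pool (median r = -0.01 with their mean deviation).

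Arc was the lower part of most of these ratios. Relative to Arc, Fosb, Junb, Egr1 and Egr3 were lower in every resilient and every susceptible pool than in any control pool. Such a ratio to Arc was found for 1.04% of all genes in resilient pools and for 0.283% in susceptible pools, and between susceptible and resilient pools for 0 of 9 members and 0.0% of genes. The limit given above holds for these shares too, since most genes do not move with the members. Arc and the lower direction were also picked after the values had been seen. In susceptible pools these are the same 4 ratios that lay near the 6.27% share above. The log2 ratio of Egr1 to Arc was 0.81 ± 0.15 in controls (range 0.64 to 1.03, SD, n = 5), -0.11 ± 0.22 in resilient pools (range -0.36 to 0.12, n = 5) and 0.08 ± 0.28 in susceptible pools (range -0.13 to 0.50, n = 4). Egr1 had more reads than Arc in 5 of 5 control pools by this margin, and no defeated pool reached the lowest control. The ratio of Egr3 to Arc ran from -1.37 to -1.11 in controls, from -2.87 to -2.14 in resilient pools and from -2.47 to -1.40 in susceptible pools. For Junb the controls ran from -2.40 to -1.91, the resilient pools from -3.51 to -2.64 and the susceptible pools from -3.66 to -2.55.

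The mean log2 ratio to Arc differed from controls in resilient pools by -0.93 for Egr1, -1.13 for Egr3, -0.86 for Junb and -0.92 for Fosb, and in susceptible pools by -0.73, -0.75, -0.86 and -1.07. Each of these 8 differences had a two-sided exact permutation p of 0.0079, the smallest the test can give, and after adjustment over 45 ratios the value was 0.060 in resilient and 0.089 in susceptible pools. These ratios were picked because their groups did not overlap, which puts such a p at or near its smallest, so it adds no support. Among the ratios to Arc the gap was smallest for Fosb, with a highest resilient ratio of -3.94 against a lowest control of -3.91, and with an offset of 2 reads its resilient and control pools overlapped. The other 2 of the 6 resilient ratios were those of Egr3 and Egr2 to Nr4a1, with mean differences of -1.03 and -0.83, and their gaps were smaller still. The highest resilient and lowest control ratios were -1.84 and -1.83 for Egr3 and -2.67 and -2.66 for Egr2, and with the offset of 2 reads those of Egr3 overlapped. Fos, Fosl2, Egr2, Npas4 and Nr4a1 had ratios to Arc that overlapped between all groups.

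**Figure D4:**
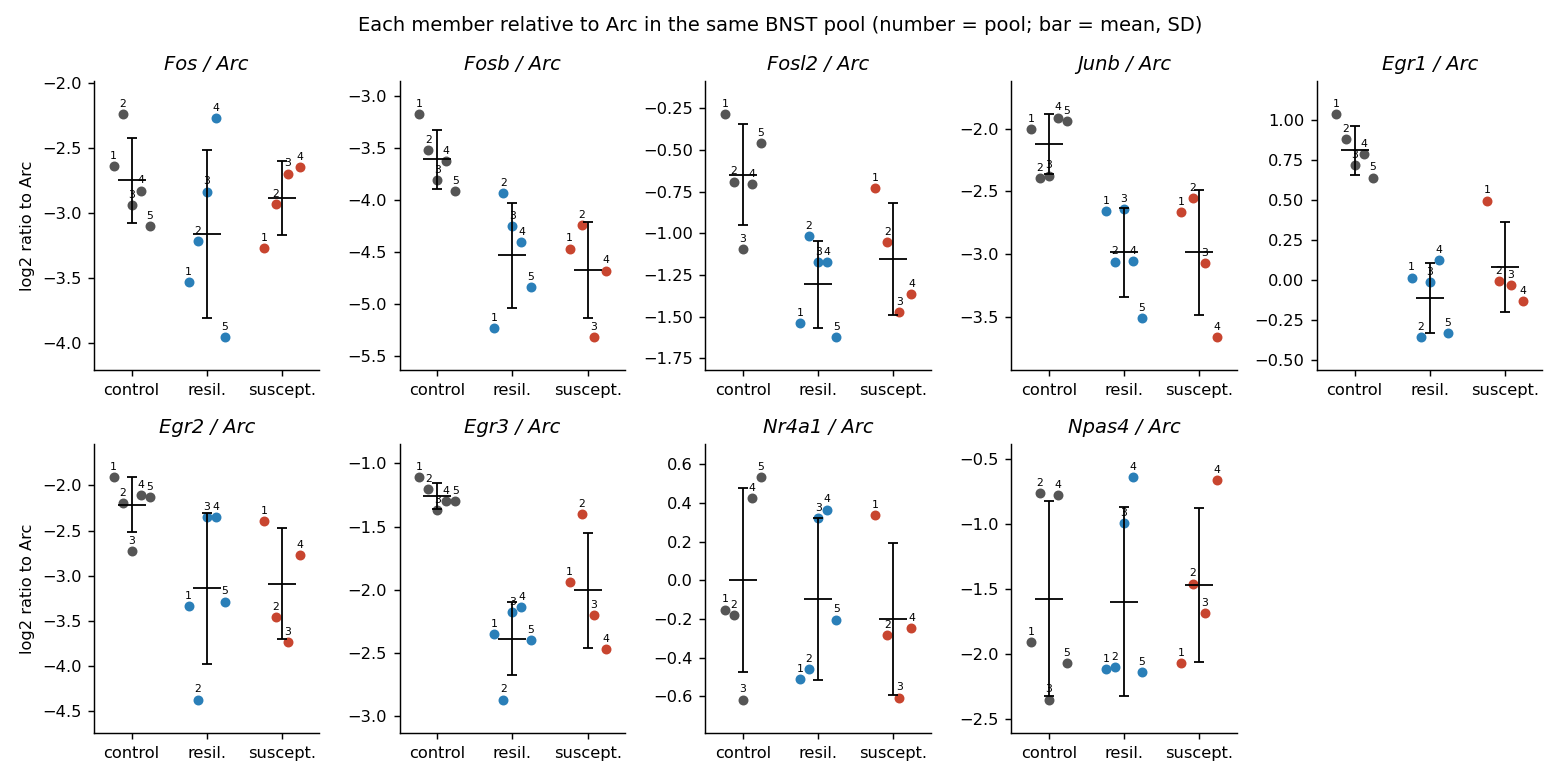
log2 ratio of each of 9 members to Arc within the same BNST pool, 1 point per pool with its number, and the mean with its SD. For Fosb, Junb, Egr1 and Egr3 the control pools lie above all 9 defeated pools.

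Other genes of the same response were counted from lists chosen with earlier results of these data known. Of 34 other rapid primary response genes in the table, 1 was called higher and 9 lower in susceptible against control pools, with a median log2 fold change of -0.26, and 2 were called higher and 5 lower in resilient against control pools (median -0.09). Of all genes, 18.9% were called in susceptible and 17.7% in resilient pools, so the 7 of 34 in resilient pools lie near the share over all genes. Jund, a partner of the Fos proteins in AP-1, was lower in susceptible (-0.99, SE 0.22, limma adjusted p = 0.023) and in resilient pools (-0.83, SE 0.21, limma adjusted p = 0.046). Egr4, the fourth EGR factor, was called lower in susceptible pools (-1.78, SE 0.58, limma adjusted p = 0.091), as was Errfi1, an inhibitor of the EGF receptor (-0.46, limma adjusted p = 0.038). Plk3, a stress-responsive kinase, was the 1 gene called higher (0.40, limma adjusted p = 0.11).

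Genes downstream and upstream of the members were counted in the same way. Of 20 activity-regulated effector genes 5 were called lower and 0 higher in each of the 2 comparisons with controls, beside 18.9% (susceptible) and 17.7% (resilient) of all genes called in either direction. They included Rasgrp1, an activator of Ras (-0.48 in susceptible pools, limma adjusted p = 0.033), Sst, the somatostatin gene (-0.65, limma adjusted p = 0.048), and Homer1, a scaffold of the synapse (-0.61, limma adjusted p = 0.10). Of 21 upstream regulators 1 was called higher and 6 lower in susceptible pools, and 1 higher and 4 lower in resilient pools. Mef2c, a factor that switches on activity-dependent genes, was at -0.67 in susceptible (SE 0.13, limma adjusted p = 0.013) and -0.48 in resilient pools (limma adjusted p = 0.054), Prkaca, the catalytic subunit of protein kinase A, was at -0.49 (limma adjusted p = 0.030), and Crtc2, a coactivator of CREB, was called higher (0.32, limma adjusted p = 0.18). Srf itself was at -0.24 (limma adjusted p = 0.48). Of 7 EGR co-repressors and AP-1 partners 2 were called lower in susceptible pools, among them Maf (-0.93, limma adjusted p = 0.044), and 3 were called lower in resilient pools. Of 6 heat shock genes, taken as a sign of handling, 1 was called lower (Hsp90aa1, -0.30, limma adjusted p = 0.082). The heat shock count, the 5 of 20 effector genes and the 5 of 21 upstream regulators in resilient pools lie near the shares over all genes called in either direction. Of all genes, 9.28% were called lower in susceptible pools.

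In blood no member was called between a defeated group and its controls. In B6 controls Junb stood at 18.3 CPM per kb of exon, Fos at 1.16, Fosl2 at 0.795, Nr4a1 at 0.484 and Fosb at 0.0924. Fosb rested on 2 to 26 reads per sample, Nr4a1 on 6 to 67 and Fos on 7 to 183, whereas Junb had 254 to 1642 and Fosl2 35 to 252. None of the 5 members was called in B6 resilient against control mice, where 2.11% of genes were called, in B6 susceptible against control mice (4.5%), in B6 susceptible against resilient mice (2.03%) or in D2 susceptible against control mice (1.57%). Without the limit on fold the counts were also 0, against 2.22%, 4.66%, 2.16% and 1.72% of genes. None was called for a difference between the strains in the response to defeat either, where 5.37% of genes were (5.38% without the limit on fold).

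Junb in blood stood at 5.17, 5.63, 5.02, 5.26 and 5.89 log2 CPM in B6 controls, at 4.74, 5.28, 5.55, 5.56 and 5.58 in B6 resilient mice and at 6.61, 5.89, 5.02, 5.17 and 5.00 in B6 susceptible mice. Susceptible mouse 1 was the highest of the 15, and the groups overlapped. The log2 fold changes against controls were -0.05 in resilient and 0.15 in susceptible mice. Fos stood at 0.91, 0.83, -0.35, 2.15 and 3.68 in B6 controls and at 2.12, 2.66, -0.35, 0.29 and 0.88 in B6 susceptible mice, and the B6 controls alone ranged from -0.35 to 3.68. Its log2 fold change in susceptible mice was -0.32 (exact permutation p = 0.71).

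Titles of B6 blood samples hold the code EC3 or EC4 before a number, and what this code, called the prefix here, stands for was not given in the labels. In susceptible against control mice all 5 members were higher within EC3 (2 against 2 mice) and lower within EC4 (3 against 3 mice). Fos differed by 1.52 within EC3 and by -1.55 within EC4, Fosl2 by 1.03 and -0.68, Fosb by 1.16 and -0.93, Junb by 0.85 and -0.33, and Nr4a1 by 0.17 and -0.42. The difference between prefixes was not tested. With the prefix as a term in the model the count of called members was again 0 in the 3 B6 comparisons and in the D2 comparison.

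**Figure D5:**
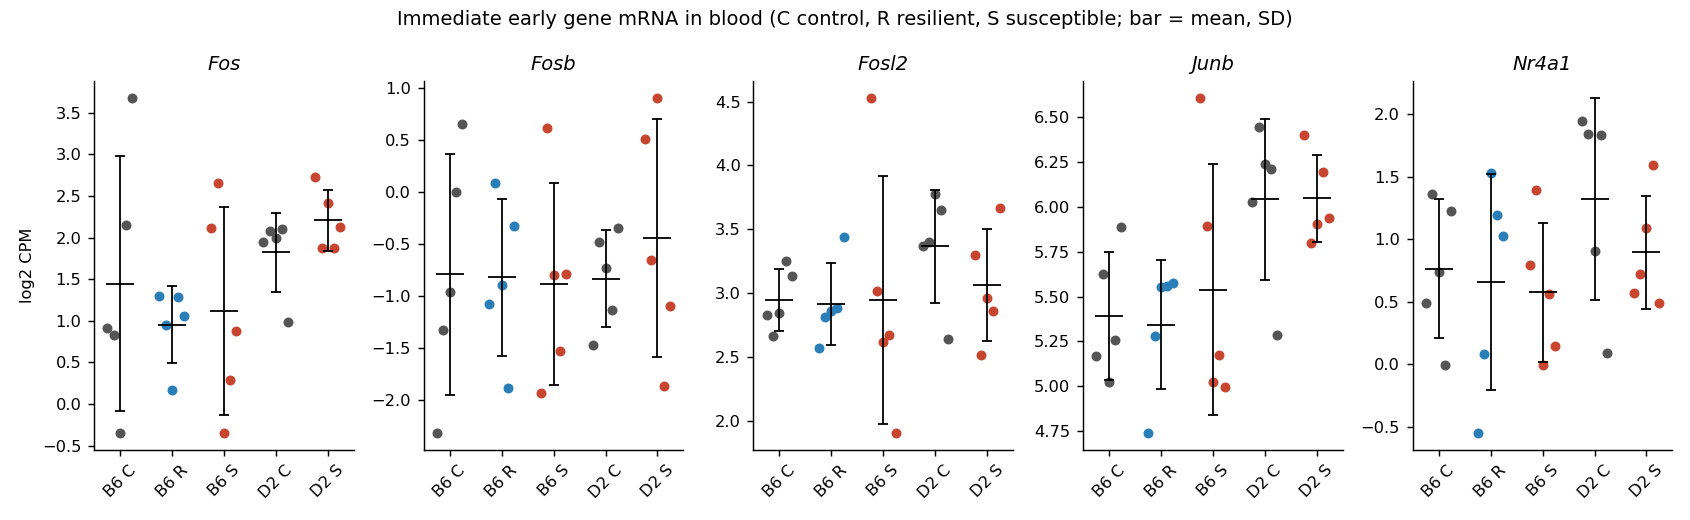
Level (log2 CPM) of the 5 members with a row in the blood table, 1 point per mouse in 5 groups, with the mean and its SD. Within each strain the groups overlap for every member.

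The strains were compared in controls. Of the 5 members 1, Junb, was called, higher in D2, where 26.4% of genes were called, 15% were called higher and 27.2% had an unadjusted p below 0.05, so that 1 of 5 is near the share over all genes. Junb stood at 6.03, 6.45, 6.24, 6.21 and 5.28 log2 CPM in D2 controls, of which 4 of 5 lay above every B6 control. The log2 fold change was 0.65 (SE 0.26, limma adjusted p = 0.10, exact permutation p = 0.040), and the call was lost without B6 control 3, without D2 control 2 (the mouse whose label and column name disagree), with the groups of the column names and with scaling to the recovered read totals. Exon bases of Junb overlap those of Prdx2 on the opposite strand, a red cell antioxidant gene with a mean of 11.2 log2 CPM in blood, and the strand setting of the counting was not given in the sources used here. Prdx2 itself was at -0.75 in D2 against B6 controls (limma adjusted p = 0.22). Blood cell markers differed in the same comparison, with 4 of 6 platelet markers (median 1.11) and 2 of 7 neutrophil markers (median 0.41, 7 of 7 above 0) called higher, and 6 of 6 B cell markers (median -0.58) and 3 of 6 heat shock genes (median -0.68) called lower. Their part in the value of Junb was not tested. The other 4 members were not called, at 0.56 for Nr4a1, 0.42 for Fosl2, 0.38 for Fos and -0.04 for Fosb.

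Across 25 blood samples, the correlation of deviations from group means had a median of 0.34 over 10 pairs, from -0.11 for Fosb with Nr4a1 to 0.77 for Fosl2 with Junb. The genes most like them were Il1b, an inflammatory cytokine (r = 0.84), the predicted genes Gm37352 (0.84) and Gm15832 (0.84), Mcl1, a survival factor of myeloid cells (0.81), and Dedd2 (0.79). The mean deviation of the members had an r of 0.56 with the summed heat shock genes (permutation p = 0.0033, adjusted p = 0.043), with a rho of 0.46 (permutation p = 0.021, adjusted p = 0.077), and r was 0.46 without the 2 farthest samples. Monocyte markers had an r of 0.45 (permutation p = 0.023, adjusted p = 0.073), neutrophil markers an r of 0.41 (permutation p = 0.043, adjusted p = 0.11) and red cell markers an r of -0.50 (permutation p = 0.011, adjusted p = 0.062). Summed neutrophil markers ranged from 1057 to 5477 CPM and summed heat shock genes from 185 to 554 CPM over the 25 samples. Their part in the values of the members was not tested.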

How the data were processed

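The authors aligned reads to GRCm38 with STAR, counted them per gene over exons with HTSeq, required 1 CPM in at least 3 BNST or 6 blood samples, and deposited log2 CPM values from voom with an offset of 0.5 reads. The deposited log2 values were taken back to reads, all whole within 0.0001. Their cohort correction is not in these values, the cohort of a pool is in no label, and nothing shows whether pools share a litter or day, so p-values measure the spread between samples. The members and all gene lists were chosen with earlier results of these data known. Values were fitted with limma 3.58.1 (R 4.3.3), all groups of a table in 1 model with a mean-variance trend, and adjusted by Benjamini-Hochberg over all genes. Calls needed an unadjusted p below 0.05 with a change of 1.2-fold or more, as in the study. Permutations of group differences were exact and two-sided, and those of correlations used 100000 draws (seed 20190926; scipy 1.17.1). The limma fit was also run on simulated reads drawn independently for each gene. These lacked the shared movement of the members from pool to pool, so they cannot check calls made under it. From other lists, at most 6 called genes with the smallest p were eligible to be named, plus 5 most correlated genes per table. Nab2, the 3 T cell genes and Prdx2, and the ratios to Arc and Nr4a1, were chosen after values were seen. Exon lengths came from GENCODE M21 (GRCm38). The miRNA tables were not used. Alternatives were another offset, scaling, filter, voom weights, no trend, a replicate block, the title prefix, the groups of the column names and each sample left out.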

Additional observations from a re-analysis of the deposited data

Results flagged for a closer look

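Among 55 groups of values (each member in each group of 4 or 5 samples), 1 held a value far from the others, and chance alone flags about 1 in 20 groups. Fos in blood of D2 control 5 was 0.988 log2 CPM, against 1.94 in the next lowest of the 5 D2 controls. The same mouse was also the lowest D2 control for Fosl2, Junb and Nr4a1.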

How the results depend on the processing

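Of 20 alternative analyses of susceptible against control BNST pools, the count of 4 called members became 1 without the mean-variance trend and 2 with the replicate block, and ranged from 0 to 5 with 1 pool left out (0 without susceptible pool 3). In resilient against control pools the count of 0 ranged from 0 to 4 (4 without resilient pool 3), and in susceptible against resilient pools from 0 to 1. In D2 against B6 control blood the count of 1 became 0 with scaling to recovered read totals and 0 with the groups of the column names, and ranged from 0 to 2 with 1 mouse left out. The cause was not tested. The other 5 blood comparisons stayed at 0 called members in all alternatives. The replicate block changed no other call, and the numbers do not pair the pools: of 13 same-numbered pairs 2 had a correlation of deviations over 0.1 (range -0.17 to 0.14), and 3 of 14 pools correlated best with their own number. No called value changed sign. The lowest read counts, 2 for Fosb in blood and 8 in the BNST, limit what can be seen there.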
